A study of Mus musculus with 35 samples.

Results

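The miR-130 and miR-301 family was followed in the liver of mice given a single dose of N-ethyl-N-nitrosourea (ENU), an alkylating agent that causes mutations and liver tumors. Its members here are mmu-miR-130a, mmu-miR-130b, mmu-miR-301a and mmu-miR-301b, named below without the species prefix. They are every assay whose name is miR-130 or miR-301 with any letter, and make up 4 of the 376 miRNA assays on the array. The family was chosen by its levels on post-treatment day (PTD) 15, where several members were higher than in the controls. The PTD 15 values of the members are therefore given as a description, with no test, and the tests below concern the other PTDs.

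Female Big Blue mice, a transgenic line made for mutation assays, were 6 months old and received ENU at 120 mg/kg in dimethyl sulfoxide (DMSO), or DMSO alone, by 1 intraperitoneal injection. ENU-treated livers were taken at PTDs 1, 3, 7 and 15 (5 mice each) and at PTDs 30 and 120 (4 mice each). The control group held 7 DMSO mice, 3 labelled day 1 and 4 labelled day 30, and there were no DMSO mice of the other days. The study's methods give the sizes of these control sets the other way round, and the labels were used here. RNA enriched for small species was measured on 1 real-time PCR array per mouse, 35 arrays in all, from a piece of whole liver, so fewer cells of a type and less miRNA per cell cannot be told apart.

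A miRNA guides the silencing complex to messenger RNAs that pair with its seed, which is made up of bases 2 to 8 counted from its 5′ end. miRNAs with the same seed share most of their predicted targets and are grouped as a family. The miR-130 and miR-301 seed family is known for repressing PPARγ, and its members have been studied in fibrosis and in liver cancer.

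The mature sequences below, from RefSeq (GRCm38.p6), show what the family shares and where its members part. Of the 1738 mature mouse entries used here, 7 carried the same seed, and 4 of these had an assay on the array under the same name without the arm: 3 members and miR-721. The mature sequence of miR-301b was not analysed here, so its seed was not checked. The seed is in capitals.
miR-130a-3p: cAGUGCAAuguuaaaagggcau
miR-130b-3p: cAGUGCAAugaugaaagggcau
miR-301a-3p: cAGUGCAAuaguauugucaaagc
miR-721: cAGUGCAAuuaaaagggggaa
The 3 member sequences were identical over their first 9 bases. Between miR-130a-3p and miR-130b-3p, 20 of 22 bases were the same and the differences were U11A and A13G, counted from the 5′ end with the base of miR-130a first. Without gaps, miR-301a-3p had 12 of 22 bases in common with miR-130a-3p and 11 of 22 with miR-130b-3p, so the members part in their 3′ portions. Whether the assay of 1 member also amplified another was not tested.

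The mature miR-130a sequence lies on the minus strand at chr2:84741116-84741137, and the Mir130a hairpin overlapped no other gene in the RefSeq table. The mature miR-301a sequence lies on the plus strand at chr11:87113054-87113076, within the span of Ska2, which codes for a protein of the spindle and kinetochore. The mature miR-130b sequence lies on the minus strand at chr16:17124071-17124092. Its hairpin is 257 bases away from the Mir301b hairpin at chr16:17124400-17124496, on the same strand, and both lie within the span of the coding gene 2610318N02Rik. miR-130b and miR-301b are thus neighbors in the genome, while miR-130a and miR-130b, the closest in sequence, are on different chromosomes.

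Ct is the PCR cycle at which a well crossed the fluorescence threshold, so that abundant RNAs have low values. Levels are given as -ΔCt, the mean Ct of 4 reference RNAs (snoRNA251, snoRNA202, snoRNA142 and U6) minus the Ct of the miRNA, so 1 unit is a factor of 2 and a higher value is more miRNA. All 4 members were read in all 35 arrays, with median Ct values of 24.2 for miR-130a, 25.7 for miR-130b, 27.0 for miR-301a and 27.2 for miR-301b. Amplification efficiency can differ between assays, so levels were not compared between members.

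The run dates in the array records were grouped here into 3 run periods by month, with 2 calendar months joined in period 1. These periods were tied to the groups. Period 1 held the 3 controls labelled day 1, 4 of the PTD 1 arrays and all arrays of PTDs 3, 7 and 15. Period 2 held 2 controls labelled day 30, replicate 4 of PTD 1 and all arrays of PTDs 30 and 120, and period 3 held the other 2 controls. The day label and the run period of the controls cannot be told apart. The median -ΔCt of the 376 miRNAs was -7.21 ± 0.53 (SD, n = 7) in the controls and -7.25 ± 0.32 (n = 5) at PTD 15, and group means lay between -7.58 (PTD 1) and -6.79 (PTD 120).

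All 4 members were highest on average at PTD 15. The mean fold change against the 7 controls was 2.49 for miR-130a, 2.81 for miR-130b, 2.31 for miR-301a and 1.80 for miR-301b. A fold change above 2 was thus seen for 3 of 4 members, where 15.2% of the 376 miRNAs had one in that direction. All 4 means were above those of the controls, where 66.8% of the 376 miRNAs were. As this contrast chose the family, nothing is read from these counts. From PTD 15 to PTD 30 the difference of the means was -0.72 for miR-130a, -0.86 for miR-130b and -0.48 for miR-301a, and -0.0024 for miR-301b, whose mean was nearly the same on both days.

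**Figure D1:**
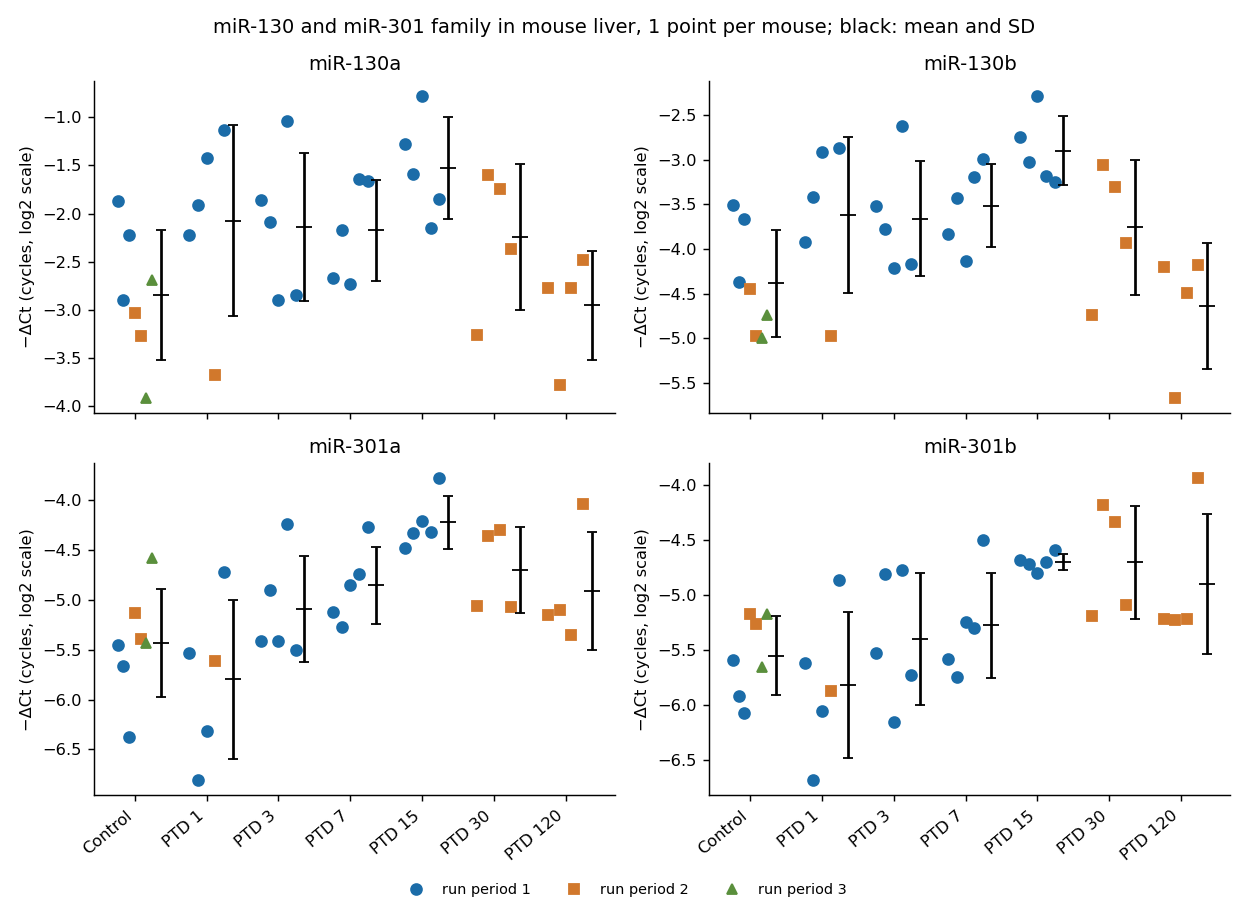
Level of each member (-ΔCt, in cycles on a log2 scale) in each of 35 mice, by group, with the run period as symbol and the group mean and SD in black. At PTD 15 the values of miR-130b, miR-301a and miR-301b lie above all 7 controls, and those of miR-130a overlap with them.

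For mmu-miR-130a, the 5 PTD 15 mice had -ΔCt values of -1.28, -1.59, -0.78, -2.15 and -1.84, and the 7 controls ran from -3.92 through a median of -2.90 to -1.87. The groups overlapped only by the PTD 15 mouse at -2.15, which lay below the highest control. The means were -1.53 ± 0.53 (SD, n = 5) and -2.84 ± 0.67 (n = 7).

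For mmu-miR-130b, the PTD 15 values were -2.75, -3.02, -2.29, -3.18 and -3.25, and the controls ran from -4.996 through -4.45 to -3.51. The groups did not overlap. The means were -2.90 ± 0.39 (n = 5) and -4.39 ± 0.60 (n = 7).

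For mmu-miR-301a, the PTD 15 values were -4.48, -4.33, -4.21, -4.32 and -3.79, against controls from -6.37 through -5.44 to -4.59. The groups did not overlap, but the lowest PTD 15 mouse was close to the highest control. The means were -4.23 ± 0.26 (n = 5) and -5.44 ± 0.54 (n = 7).

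For mmu-miR-301b, the PTD 15 values were -4.69, -4.72, -4.80, -4.70 and -4.60, against controls from -6.07 through -5.59 to -5.17. The groups did not overlap. The 5 mice lay closer together than those of any other group, with an SD of 0.074, where the other groups had an SD between 0.36 and 0.66. No overlap with the controls was thus seen for 3 of 4 members, where 7.71% of the 376 miRNAs were above all controls in all PTD 15 mice.

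The controls differed among themselves by label, and in opposite directions for the miR-130 and the miR-301 members. miR-130a averaged -2.33 ± 0.52 (SD, n = 3) in the controls labelled day 1 and -3.23 ± 0.52 (n = 4) in those labelled day 30, and miR-130b averaged -3.85 ± 0.46 and -4.79 ± 0.26. miR-301a averaged -5.83 ± 0.48 and -5.14 ± 0.39, and miR-301b -5.86 ± 0.25 and -5.32 ± 0.23. The control sets did not overlap for miR-130b and miR-301a and overlapped for miR-130a and miR-301b. How many of all miRNAs on the array had control sets without overlap was not tested, so nothing is read from this. The control sets differed widely beyond the family. At PTD 15, 80.1% of all miRNAs were above the controls labelled day 1 and 42.3% above those labelled day 30. Many miRNAs were thus higher in the controls labelled day 30, as the miR-301 members were.

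The order of the members at PTD 15 therefore turned with the controls used. With only the controls labelled day 1, which ran in the same period as PTD 15, the fold changes were 3.04 for miR-301a, 2.24 for miR-301b, 1.94 for miR-130b and 1.75 for miR-130a. With only those labelled day 30 they were 3.71 for miR-130b, 3.25 for miR-130a, 1.88 for miR-301a and 1.53 for miR-301b. All 4 remained above 1 in both, but 2 members passed a fold of 2 in each case, the miR-301 members in the first and the miR-130 members in the second. Of the 376 miRNAs, 80.1% were above 1 and 52.4% above 2 with the controls labelled day 1, and 42.3% and 6.12% with those labelled day 30, and nothing is read from these counts either. When the array median of Ct served as the reference, the fold changes were 2.55, 2.87, 2.36 and 1.84 for miR-130a, miR-130b, miR-301a and miR-301b, close to those on -ΔCt.

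**Figure D2:**
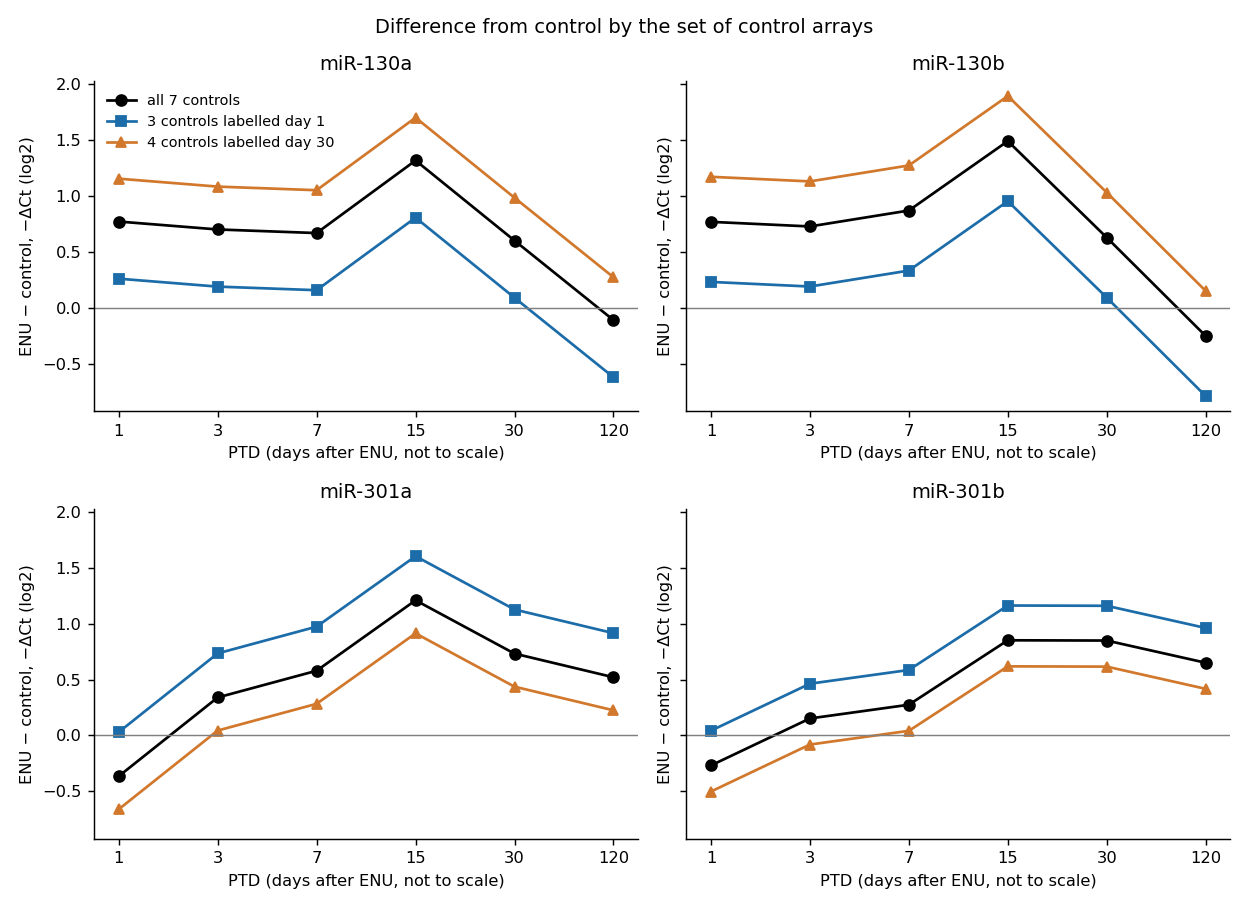
Difference of mean -ΔCt between each ENU group and the controls (log2, days not to scale), against all 7 controls, the 3 labelled day 1 and the 4 labelled day 30, with no error drawn. A change of control set moves all points of a member by the same amount, so the shape of a curve cannot change. With the day 1 controls the shift is downward for the miR-130 members and upward for the miR-301 members.

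Each of the other PTDs was compared with the same 7 controls, so these comparisons share their controls with each other and with PTD 15. A differentially expressed miRNA (DEM) was called at a raw limma p under 0.01 together with a fold change above 2. None of the 4 members was a DEM at PTDs 1, 3, 7, 30 or 120, and none had a Benjamini-Hochberg adjusted p under 0.05 over the 376 miRNAs. At a limma p under 0.05, not adjusted, there was 1 member at PTD 7, 1 at PTD 30 and 0 at PTDs 1, 3 and 120. The methods' t-test, on -ΔCt and on linear values, called 0 members at these PTDs as well, where it called 0.266% to 8.24% of the 376 miRNAs on -ΔCt and 0.798% to 3.72% on linear values. Among the 376 miRNAs, the share of higher DEMs at PTDs 1, 3, 7, 30 and 120 was 0.532%, 1.33%, 2.39%, 1.6% and 1.33%. The share of lower DEMs was, in the same order, 0.798%, 0.798%, 7.45%, 0% and 0%. An adjusted p under 0.05 was reached by 0%, 0.798%, 7.45%, 0.532% and 0% of them, and an unadjusted p under 0.05 by 5.05%, 10.4%, 24.5%, 10.6% and 8.78%. A count of 0 among 4 members is near this background.

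At PTD 1 the miR-130 and miR-301 members had differences of opposite sign, none past the test. miR-130a differed by 0.77 (log2, SE 0.47, limma adjusted p = 0.67) and miR-130b by 0.77 (SE 0.43, limma adjusted p = 0.67), and 4 of 5 mice lay above the control mean for each. miR-301a differed by -0.36 (SE 0.41, limma adjusted p = 0.76) and miR-301b by -0.27 (SE 0.35, limma adjusted p = 0.80), with 1 of 5 mice above the control mean. The signs for miR-301a and miR-301b changed with the array median as reference, to 0.0067 and 0.10.

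In the PTD 1 group, replicate 4, which ran in period 2, stood apart for the miR-130 members. Its -ΔCt was -3.68 for miR-130a, where the other 4 mice ran from -2.22 to -1.13, and -4.98 for miR-130b, where they ran from -3.92 to -2.87. For miR-301a and miR-301b it lay within the range of the others, at -5.61 and -5.88. Without this mouse the differences of miR-130a and miR-130b at PTD 1 were 1.17 and 1.11, and neither was a DEM. Within run period 1, with 4 PTD 1 mice and 3 controls, the differences were 0.66 and 0.57 for miR-130a and miR-130b, and -0.017 and 0.056 for miR-301a and miR-301b.

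At PTD 3 the differences from the 7 controls were 0.70 (SE 0.42) for miR-130a, 0.73 (SE 0.38) for miR-130b, 0.34 (SE 0.35) for miR-301a and 0.15 (SE 0.33) for miR-301b. The limma adjusted p values were between 0.53 and 0.93. All 4 differences were above 0, where 51.9% of the 376 miRNAs had one above 0. The 5 mice of miR-130b had values of -3.52, -3.78, -4.22, -2.62 and -4.16, all above the control mean of -4.39, and 1 of them lay above all controls. Without that mouse, replicate 4, the differences were 0.42, 0.47, 0.13 and -0.0044 for miR-130a, miR-130b, miR-301a and miR-301b. Within run period 1 the order was again turned, with 0.19 for both miR-130 members, 0.73 for miR-301a and 0.46 for miR-301b.

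At PTD 7 all 4 members had means above the controls, as did 62.2% of the 376 miRNAs, with the largest difference for miR-130b. The miR-130b comparison was 1 of the 3 member comparisons of 32 with an exact permutation p under 0.05. The exact test was not run on the other miRNAs. An unadjusted limma p under 0.05 was reached by 24.5% of the 376 at PTD 7 and by 10.6% at PTD 30. The miR-130b values were -3.83, -3.43, -4.13, -3.20 and -2.99, all above the control mean, and 3 of 5 lay above all 7 controls. The difference was 0.87 (SE 0.35, 95% confidence interval 0.13 to 1.61), with an exact permutation p of 0.0278, two-sided, and a limma adjusted p of 0.14. With 5 against 7 mice, the smallest exact p is 0.00253.

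The other differences at PTD 7 were 0.67 (SE 0.37) for miR-130a, 0.58 (SE 0.32) for miR-301a and 0.27 (SE 0.30) for miR-301b. For miR-301a the mice had -5.13, -5.28, -4.86, -4.75 and -4.28, again all above the control mean of -5.44. Within run period 1 miR-301a differed by 0.97 from the 3 controls, a fold of 1.96, with a limma adjusted p of 0.0403 and an exact permutation p of 0.0357, the smallest that 5 against 3 allows. In that comparison 48.4% of the 376 miRNAs had an adjusted p under 0.05. In the same arrays miR-130b differed by 0.33 and miR-130a by 0.16, with limma adjusted p values of 0.46 and 0.74. Against the 4 controls labelled day 30, miR-130b differed by 1.27 (limma adjusted p = 0.0274) and was a DEM, and miR-301a by 0.28 (limma adjusted p = 0.57), where 6.38% of the 376 miRNAs had an adjusted p under 0.05 and 10.1% were DEMs. Against all 7 controls but with the array median of Ct as the reference, miR-301a differed by 0.88 (limma adjusted p = 0.0234) and miR-130b by 1.17 (limma adjusted p = 0.0815), where 35.9% of the 376 miRNAs had an adjusted p under 0.05. The member with an adjusted p under 0.05 at PTD 7 thus differed with the control set and with the reference used.

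At PTD 30 the 4 members lay between 0.60 and 0.85 above the controls, where the median of the 376 miRNAs was 0.54 and 86.2% of them had a difference above 0. miR-301b had values of -5.19, -4.19, -4.34 and -5.09, all above the control mean of -5.55, with 3 of 4 above all controls. Its difference was 0.85 (SE 0.33), with an exact permutation p of 0.0182 and a limma adjusted p of 0.43. miR-301a differed by 0.73 (SE 0.36), with an exact permutation p of 0.0424 and a limma adjusted p of 0.43. miR-130a and miR-130b differed by 0.60 (SE 0.44) and 0.63 (SE 0.42), with limma adjusted p values of 0.48 and 0.45. The smallest exact p for 4 against 7 mice is 0.00606. Against the 3 controls labelled day 1, which ran in another period, miR-301a differed by 1.13 (limma adjusted p = 0.0318) and miR-301b by 1.16 (limma adjusted p = 0.0268), neither a DEM, where 48.9% of the 376 miRNAs had an adjusted p under 0.05 and 37.5% were DEMs. Against the same day 1 controls miR-130a and miR-130b differed by 0.0896 and 0.0905. Within run period 2, with 2 controls, the differences were 0.91, 0.95, 0.56 and 0.52 for miR-130a, miR-130b, miR-301a and miR-301b. With the array median of Ct as the reference and all 7 controls they were, in the same order, 0.19, 0.22, 0.32 and 0.44.

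At PTD 120 the miR-130 members differed from the controls by -0.11 (SE 0.42) and -0.25 (SE 0.41), and the miR-301 members were at 0.52 (SE 0.38) and 0.65 (SE 0.35), where the median of the 376 miRNAs was 0.46. The limma adjusted p values were between 0.45 and 0.90. The 4 mice had miR-301b values of -5.22, -5.23, -5.22 and -3.94, so 1 mouse carried much of the difference. Within run period 2 all 4 members lay between 0.073 and 0.35 above the 2 controls, so the negative signs of the miR-130 members were lost. With the array median of Ct as the reference the differences were -0.53, -0.67, 0.10 and 0.23 for miR-130a, miR-130b, miR-301a and miR-301b, and against the controls labelled day 1 they were -0.62, -0.79, 0.91 and 0.96.

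Neighboring ENU groups were also compared with each other, which needs no control. From PTD 1 to PTD 3 the differences were -0.071 and -0.041 for miR-130a and miR-130b, and 0.70 (SE 0.45) and 0.42 (SE 0.43) for miR-301a and miR-301b. From PTD 3 to PTD 7 all 4 lay between -0.032 and 0.24. From PTD 30 to PTD 120 miR-130a and miR-130b differed by -0.71 (SE 0.44) and -0.88 (SE 0.47), and miR-301a and miR-301b by -0.21 and -0.20. None of the 4 members was a DEM or had a limma adjusted p under 0.05 in these 3 comparisons, and 0 had a limma p under 0.05 without adjustment. Higher DEMs made up 2.39%, 0.798% and 0% of the 376 miRNAs in the order given, and lower ones 0.532%, 0.266% and 0.798%. An adjusted p under 0.05 was reached by 0% in all 3, and an unadjusted p under 0.05 by 14.9%, 4.79% and 3.46%.

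The means at PTD 15 were above those at PTD 7 by 0.65 for miR-130a, 0.62 for miR-130b, 0.63 for miR-301a and 0.58 for miR-301b, given side by side with no test. The ranges of the 5 mice overlapped for all 4 members. For miR-301b the whole PTD 15 range, from -4.80 to -4.60, lay inside the PTD 7 range from -5.75 to -4.51.

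The order of group means differed between the miR-130 and miR-301 members below PTD 15. For miR-130a it ran from PTD 15 through PTDs 1, 3, 7 and 30 to the controls and PTD 120, and for miR-130b PTD 7 came before PTD 1. For miR-301a the order was PTDs 15, 30, 7, 120 and 3, the controls and PTD 1, and for miR-301b it was PTDs 15, 30, 120, 7 and 3, the controls and PTD 1. Among the groups other than PTD 15, no neighbors in these orders differed by more than the larger of their SDs. PTD 1 was therefore near the top for the miR-130 members and last for the miR-301 members.

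The members paired by number rather than by place in the genome. Over the 35 arrays, the -ΔCt of miR-130a and miR-130b had a Pearson r of 0.96 (Spearman rho 0.97), and that of miR-301a and miR-301b an r of 0.91 (rho 0.92). The genomic neighbors miR-130b and miR-301b had an r of 0.30 (rho 0.38), near the median r of 0.32 over all pairs of the 361 miRNAs read in every array. Relative to the array median of Ct, the neighbors had an r of 0.59, where the median over all pairs was 0.11, and the miR-130 and miR-301 pairs had 0.98 and 0.90. The other combinations of a miR-130 with a miR-301 member had an r between 0.33 and 0.34 on -ΔCt. Relative to the array median they had 0.53, 0.55 and 0.59, so the neighbors did not stand apart from them. These arrays share run periods and reference RNAs, and the values are given as a description.

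The pattern was seen within groups and run periods as well. After the group means were taken away, r was 0.96 for miR-130a with miR-130b, 0.90 for miR-301a with miR-301b and 0.32 for miR-130b with miR-301b. Without the 5 PTD 15 arrays these were 0.96, 0.91 and 0.16. The neighbors had an r of 0.55 within the 22 arrays of run period 1 and 0.69 within the 11 of run period 2, above the value of the pooled arrays. The other combinations of a miR-130 with a miR-301 member were also above their pooled values. They had an r from 0.39 to 0.50 in period 1 and from 0.67 to 0.79 in period 2. On the plate, miR-130a and miR-130b shared a sector (the wells of odd rows and even columns), and miR-301a and miR-301b did not. Relative to the median Ct of the plate sector, r was 0.97 for the miR-130 pair, 0.55 for the miR-301 pair and 0.44 for the neighbors, so the closeness of the miR-301 pair changed with this scaling.

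**Figure D3:**
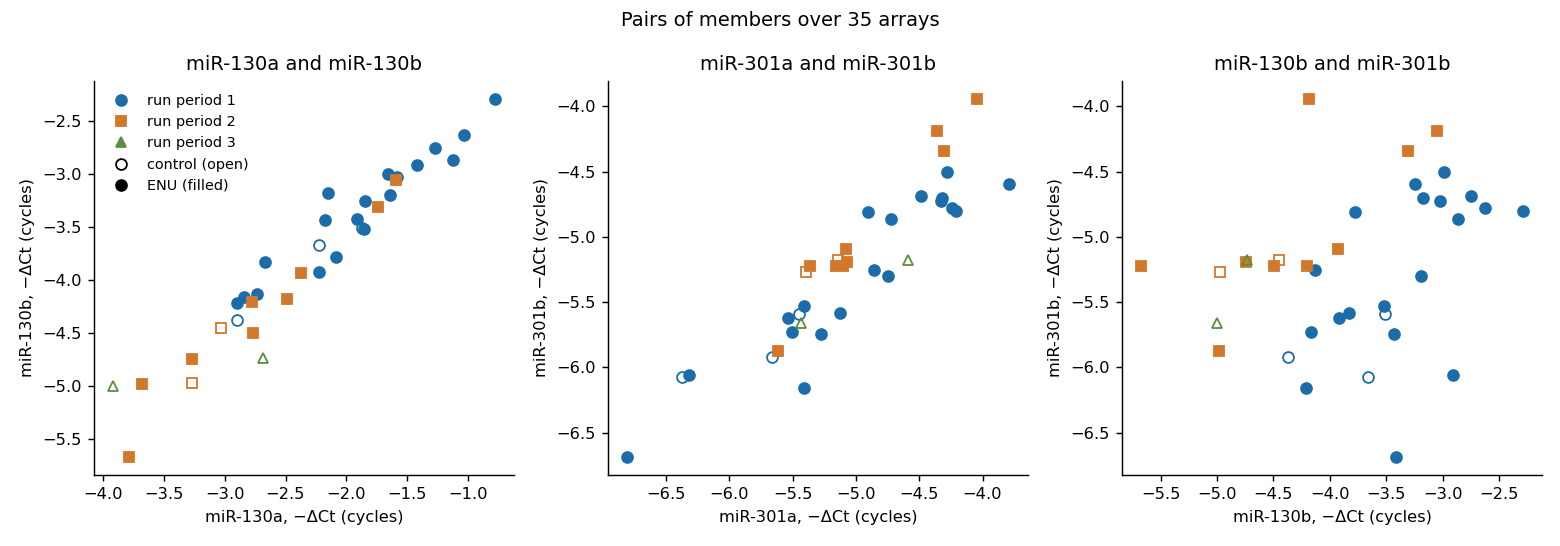
Level of 1 member against another (-ΔCt, in cycles) over 35 arrays, with the run period as symbol, controls open and ENU arrays filled. The miR-130 and the miR-301 pairs lie along a line (r = 0.96 and 0.91), and miR-130b with miR-301b scatters (r = 0.30), with most arrays of periods 2 and 3 to the left.

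The gap between members of 1 array, which no reference RNA enters, showed the same. The gap of miR-130a minus miR-130b was 1.499 ± 0.21 cycles (SD, n = 35), and its group means stayed between 1.34 and 1.68. The gap of miR-301a minus miR-301b was 0.20 ± 0.28, with group means of 0.12 ± 0.29 in the controls, 0.42 ± 0.12 and 0.48 ± 0.23 on PTDs 7 and 15, and 0.0010 ± 0.13 on PTD 30. The gap of miR-130b minus miR-301b spread most, at 1.44 ± 0.84, from -0.44 to 3.27.

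The gap of the genomic neighbors followed the run period. It was 1.94 ± 0.56 in the 22 arrays of period 1, with a lowest value of 1.03, and 0.60 ± 0.50 in the 13 arrays of periods 2 and 3, of which 10 lay below all of period 1. Among the controls it was 2.01 ± 0.43 (n = 3) under the day 1 label and 0.53 ± 0.20 (n = 4) under the day 30 label. At PTD 1, replicate 4 had 0.90, the lowest of that group, where the group ranged up to 3.27. The ENU groups of period 1 had means of 1.74 to 1.81 at PTDs 3, 7 and 15, and those of period 2 had 0.95 ± 0.33 at PTD 30 and 0.26 ± 0.71 at PTD 120. Since PTDs 3, 7 and 15 ran in 1 period and PTDs 30 and 120 in another, the day and the run period of the ENU groups cannot be told apart for this gap.

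**Figure D4:**
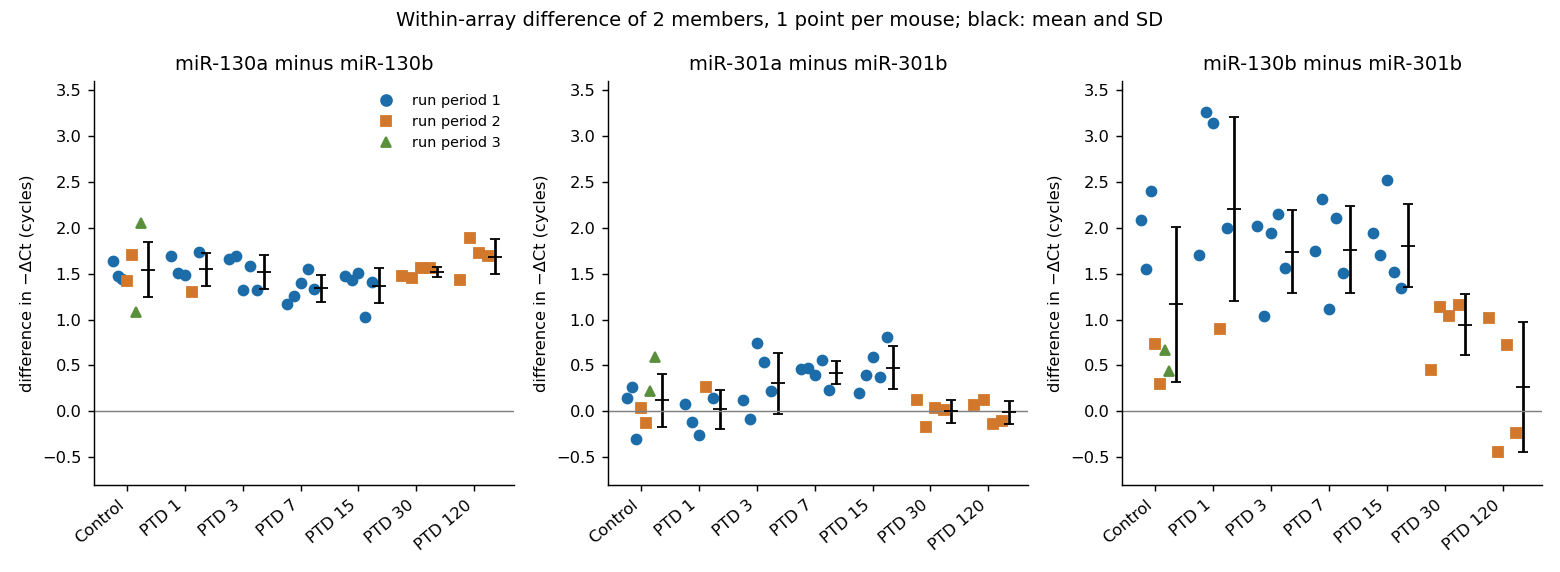
Within-array difference of -ΔCt (cycles) for 3 pairs of members, by group, with the run period as symbol and the group mean and SD in black. The gap of miR-130b minus miR-301b is 1.94 ± 0.56 in period 1 and 0.60 ± 0.50 in periods 2 and 3, while the other gaps change less.

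The assays outside the family that were most like each member also differed between the miR-130 and miR-301 members. They were ranked by Pearson r of Ct relative to the array median over the 35 arrays, with the other members left out. They were miR-107 (r = 0.88), miR-674 (0.87) and miR-33 (0.84) for miR-130a, and miR-107 (0.91), miR-674 (0.87) and miR-345-5p (0.84) for miR-130b. For miR-301a they were miR-106b (0.95), miR-497 (0.90) and miR-106a (0.88), and for miR-301b miR-106b (0.86), miR-199a-5p (0.85) and miR-338-3p (0.83). miR-106b belongs to a cluster known to promote cell division, and miR-33 lies in a gene of sterol control and acts on cholesterol export. Across all pairs of 361 miRNAs on this scale, r had a median of 0.11 and a 95th percentile of 0.68.

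Other miRNAs with the same or a related seed were also on the array. miR-721, with the full seed, had Ct values from 35.2 to 39.7 of 40 cycles in 34 arrays and no Ct in the other, so it is counted in the list that follows and its differences are not given singly. Of the 6 assays with this seed or a seed shifted by 1 base (miR-721, miR-19a, miR-19b, miR-148a, miR-148b and miR-152), 0 were DEMs in any of the 9 comparisons. Higher DEMs made up 0% to 6.65% of the 376 miRNAs in these comparisons. Leaving PTD 15 aside, lower DEMs made up 0% to 7.45%, so a count of 0 among 6 assays is near the background. The median difference of the 6 assays at PTD 15 was 0.42, where that of the 376 miRNAs was 0.36, and the highest was 0.58.

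The miRNAs of the clusters miR-17-92, miR-106b-25 and miR-106a-363, known for promoting cell division, had a median difference of 0.71 at PTD 15, where that of the 376 miRNAs was 0.36. Of the 12 on the array, 2 were DEMs, miR-93 at 1.04 (SE 0.29, limma adjusted p = 0.0396) and miR-106b at 1.09 (SE 0.27, limma adjusted p = 0.0229), and all 12 had differences above 0. Higher DEMs made up 6.65% of the 376 miRNAs at PTD 15. At PTD 7 the median of the list was 0.66, where that of all was 0.19, and 0 of 12 were DEMs. At PTD 1 it was -0.35, where that of all was -0.37. At PTDs 3, 30 and 120 the median of the list was 0.39, 0.70 and 0.61, where that of all was 0.019, 0.54 and 0.46.

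Markers of other cells were read in the same livers. At PTD 15, 2 of 3 erythroid markers were DEMs, where higher DEMs made up 6.65% of the 376 miRNAs. These were miR-144 at 1.52 (SE 0.35, limma adjusted p = 0.0162) and miR-451 at 1.04 (SE 0.34, limma adjusted p = 0.0635), and miR-486 had 0.81 (SE 0.42). The summed level of the erythroid markers (log2 of the summed 2-to-the-power of -ΔCt) ran from 2.09 to 3.43 in the controls and from 2.95 to 4.18 at PTD 15. None of the 2 endothelial, 5 leukocyte and 3 stromal markers was a DEM at PTD 15, with median differences of 0.62, 0.24 and 0.60. The leukocyte markers went both ways, from -0.95 (SE 0.42, limma adjusted p = 0.15) for miR-142-5p to 0.56 (SE 0.43) for miR-155. Summed levels ran from 3.01 to 5.35 in the controls and 4.57 to 5.69 at PTD 15 for the endothelial markers, from -0.37 to 1.30 and 0.11 to 1.37 for the leukocyte markers, and from -1.37 to 0.97 and -0.36 to 0.77 for the stromal markers. Of the hepatocyte markers, miR-122 had a difference of -0.58 (SE 0.76), miR-192 of 0.48 (SE 0.41) and miR-194 of 0.20 (SE 0.46), and their summed level ran from 7.04 to 8.70 in the controls and from 5.95 to 9.03 at PTD 15. On other days leukocyte markers moved as well. miR-150 was a lower DEM at PTD 1 (-1.72, SE 0.36, limma adjusted p = 0.11), where 0.798% of the 376 miRNAs were. miR-142-3p was a higher DEM at PTD 120 (1.35, SE 0.43, limma adjusted p = 0.45), where 1.33% were. The summed leukocyte level at PTD 120 ran from 1.42 to 2.20, above the range of the controls. The part of the erythroid and other markers in the levels of the family was not tested.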

How the data were processed

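SYBR Green real-time PCR arrays of 384 wells were run on small RNA of 35 mouse livers. The authors deposited the Ct of each well as the instrument software gave it, in cycles and without normalization, and no other value was used. Well names came from the plate layout of the study. The members and the lists were chosen with earlier results of these data known. The 15 wells without a Ct, none of a member, were treated as missing. The 7 controls were 1 group, as in the study.

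-ΔCt was the mean Ct of the 4 reference RNAs minus the Ct of a miRNA. Each comparison was fitted over 376 miRNAs in limma (version 3.58.1, R version 4.3.3), two-sided, with Benjamini-Hochberg adjustment and no covariate. In single members, group means were compared by an exact permutation test over mice (scipy version 1.17.1), and for PTD 15 no test was made. The fit was tested on simulated data. Alternatives were other reference values, control sets, run periods, covariates and calls, and each sample left out. The text names the 4 members, the seed relatives, the 3 assays outside the family most like each member and fixed lists of cell type and proliferation markers. The number of arrays per group, 4 to 7, limits the precision. P values measure the spread between mice. In the pooled controls this spread includes the differences between day labels and run periods.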

Additional observations from a re-analysis of the deposited data

Results flagged for a closer look

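At PTD 120, replicate 4 lay far from the other 3 mice for miR-301b, with a -ΔCt of -3.94, where the others ran from -5.23 to -5.22. Its miR-301a value, -4.05, was also above those of the others, which ran from -5.36 to -5.10. This was the only gap beyond the 95% limit of Dixon's test among 28 combinations of a member and a group, and chance alone passes that limit in about 1 of 20. Without this mouse, the difference of miR-301b at PTD 120 was 0.33, where it was 0.65 with all 4 mice, and that of miR-301a was 0.23, where it was 0.52.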

How the results depend on the processing

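At PTD 15 all 4 members remained above the controls under every alternative run, with 2 to 4 members above a fold of 2, where 42.3% to 80.1% of the miRNAs tested were above the controls and 6.12% to 52.4% above that fold. For miR-130b the difference moved to 0.95 with the controls labelled day 1 (the same arrays as run period 1), for miR-301b to 1.16 with these and to 0.52 with the plate-sector median, and for miR-301a to 1.87 with the latter. The number of members called at PTD 3 was 0 and became 1 with the plate-sector median (miR-301a at 1.11), where 4.79% of the 376 miRNAs were called. At PTD 7 it was 0 and became 1 with the plate-sector median (miR-301a at 1.49, limma adjusted p = 0.00491, where 18.4% of the 376 miRNAs were called), with the difference of the reverse transcription control wells as a covariate (miR-130b at 1.15, limma adjusted p = 0.0652, where 8.78% were called) and with the controls labelled day 30 (10.1% called). On leaving out each sample in turn, the PTD 7 count ranged from 0 to 1, and it was 1 without the control labelled day 1 replicate 1 (miR-130b at 1.02, limma adjusted p = 0.0837, where 10.9% were called). The cause was not tested.

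Differences near 0 changed sign. At PTD 1 miR-301a became 0.0067 with the array median, 0.012 with the plate-sector median and 0.030 with the controls labelled day 1, and miR-301b became 0.10, 0.26 and 0.043 with these and 0.056 within run period 1. At PTD 3 miR-301b became -0.019 without snoRNA142 among the reference RNAs and -0.081 with the controls labelled day 30. At PTD 120 miR-130a became 0.0051 without snoRNA202, 0.27 with the controls labelled day 30 and 0.20 within run period 2, and miR-130b became 0.15 and 0.073 with the latter settings. From PTD 1 to PTD 3, the control-well covariate gave 0.29 for miR-130a and 0.20 for miR-130b, and miR-130b became 0.018 without snoRNA202 and 0.019 without U6. From PTD 3 to PTD 7, miR-130a became 0.027 without snoRNA251, 0.12 without snoRNA142 and 0.059 with the covariate, and miR-301b became -0.11 with the plate-sector median.

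On leaving out each sample in turn, the ranges that crossed 0 were -0.0044 to 0.34 for miR-301b at PTD 3, -0.29 to 0.17 for miR-130a and -0.41 to 0.091 for miR-130b at PTD 120. From PTD 1 to PTD 3 they were -0.47 to 0.17 for miR-130a and -0.38 to 0.15 for miR-130b, and from PTD 3 to PTD 7 they were -0.22 to 0.24 for miR-130a and -0.070 to 0.28 for miR-301b. With the replicate number as a block, 0 members were called in the 8 tested comparisons and 3 passed a fold of 2 at PTD 15, as without it. The block called 0.532% to 7.71% of the 376 miRNAs in these 8 comparisons, and 11.4% passed that fold at PTD 15. In no comparison did every pair of same-numbered mice deviate together with an r over 0.1 (r from -0.19 to 0.52), and nothing in the labels pairs them. The assays outside the family most like a member were listed on the array-median scale. On -ΔCt 3 of 3 stayed for miR-130a and 2 of 3 for each other member.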
